A study of Homo sapiens with 9 samples.

Results

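The sterol and fatty acid synthesis genes of MCF10A, a breast epithelial cell line that is immortal, does not form tumours and depends on added EGF for growth, were read from 9 one-colour Affymetrix arrays. The list held 31 genes, 20 of sterol synthesis and its control and 11 of fatty acid synthesis, and the rule for its members uses no measured value. A probe set is the array's measuring unit for a transcript, and a gene was taken as measured where at least 1 probe set was annotated to it alone. This held for 27 members, 18 sterol and 9 fatty acid genes, out of 19775 genes measured in this way. All 27 also passed the filter on low values. FDFT1, CYP51A1, FADS1 and ACSL3 had no such probe set and were not analysed here. Each gene is given by the brightest of its probe sets, judged by the mean over the 9 arrays, and the 35 further probe sets of the members are described after the comparisons.

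There were 3 groups, each with 3 biological replicates. The cells labelled ERBB2 were infected with pBabe-ErbB2, a retrovirus that encodes ERBB2, a growth factor receptor with kinase activity. The EGF cells carried the empty pBabe retrovirus and received EGF at 50 ng/ml for 2 h before harvest. The vector cells carried the empty virus and no added EGF. After infection all 3 groups were kept in 2% horse serum without EGF, having been maintained before with EGF, insulin, hydrocortisone and cholera toxin. The labels do not say whether replicates came from separate infections or a pool, so the spread behind each p-value is that among these samples, which may be technical. Insulin and hydrocortisone are named for the maintenance medium, and their presence in the assay medium is not given in the sources used here. RNA was taken from whole cultures, so fewer cells of a kind and less RNA per cell cannot be told apart.

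Cells build cholesterol from acetyl-CoA through mevalonate, isoprenoid diphosphates, squalene and lanosterol, and they build fatty acids from the same acetyl-CoA through malonyl-CoA. Many enzymes of both routes are controlled by the SREBP transcription factors, which SREBF1 and SREBF2 encode. SREBPs stay in the endoplasmic reticulum, bound to SCAP and held there by INSIG proteins while sterols are plentiful, and they move to the Golgi for cleavage when sterols run low. In epithelial cells the products supply membranes for growth, and growth factor signalling is known to raise SREBP activity.

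Promoters are shown for 4 genes because the members' promoters shared a short motif. They were chosen after the values and matches were seen. No promoter available for a called member held the form of the sterol regulatory element searched for. HMGCS1 had the largest change in both comparisons with vector, INSIG1 and MSMO1 were higher with EGF than in the cells labelled ERBB2, and SREBF2 was the member with the sterol element. Each line gives the 250 bases before the annotated start, 5′ to 3′ on the gene's strand, from RefSeq on GRCh38.p14. Capitals mark CCAAT or its reverse complement ATTGG (the box bound by NF-Y), CACGTG (an E-box) and TCACNCCAC (a form of the sterol regulatory element). HMGCS1 lies at chr5:43313413-43313662 on the minus strand. INSIG1 lies at chr7:155297628-155297877, MSMO1 at chr4:165327419-165327668 and SREBF2 at chr22:41832855-41833104, all on the plus strand.
HMGCS1: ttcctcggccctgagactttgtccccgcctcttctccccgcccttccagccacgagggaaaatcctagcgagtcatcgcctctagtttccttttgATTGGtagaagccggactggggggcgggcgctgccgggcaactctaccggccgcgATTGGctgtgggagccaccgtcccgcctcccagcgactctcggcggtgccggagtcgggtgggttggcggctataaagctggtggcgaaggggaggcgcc
INSIG1: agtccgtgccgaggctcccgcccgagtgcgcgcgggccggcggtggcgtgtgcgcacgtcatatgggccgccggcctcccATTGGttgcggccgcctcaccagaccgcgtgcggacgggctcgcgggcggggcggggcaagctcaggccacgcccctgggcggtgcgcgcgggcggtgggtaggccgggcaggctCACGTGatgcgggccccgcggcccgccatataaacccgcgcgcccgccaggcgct
MSMO1: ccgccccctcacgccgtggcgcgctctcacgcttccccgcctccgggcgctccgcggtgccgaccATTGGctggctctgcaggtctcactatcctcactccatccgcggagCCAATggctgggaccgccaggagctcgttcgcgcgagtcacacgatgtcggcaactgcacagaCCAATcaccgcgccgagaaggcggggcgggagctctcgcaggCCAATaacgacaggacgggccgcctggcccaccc
SREBF2: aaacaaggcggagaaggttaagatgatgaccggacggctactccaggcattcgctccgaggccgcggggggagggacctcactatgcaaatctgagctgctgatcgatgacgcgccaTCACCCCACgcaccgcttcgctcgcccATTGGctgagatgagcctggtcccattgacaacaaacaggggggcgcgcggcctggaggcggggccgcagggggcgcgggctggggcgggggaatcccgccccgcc

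The sequence table held 37 promoters, of 250 bases before and 50 after the start, for 27 of the 31 list genes. SQLE, ACAT2, FASN and FDFT1 had none and were not searched, so these 27 are not the same genes as the 27 measured. Other forms of the sterol element were not searched. CCAAT was found on either strand in 17 of 22 promoters of sterol genes (77.3%), in 8 of 15 of fatty acid genes (53.3%) and in 12155 of 35116 promoters of all genes (34.6%). CACGTG was found in 4 of the 22 sterol promoters, 0 of the 15 fatty acid promoters and 7.26% of all promoters. TCACNCCAC was found in 1 of the 22, in 0 of the 15 and in 1.13% of all promoters, the 1 being that of SREBF2. The shown HMGCS1 promoter held CCAAT boxes 155 and 100 bases before the start. That of MSMO1 held them at 185, 139, 76 and 34 bases, and that of INSIG1 had a CCAAT box at 170 and an E-box at 55 bases. The motifs do not overlap in the 4 promoters shown, while CCAAT matches on opposite strands overlapped in promoters of IDI1 and NSDHL. A match in letters is not a bound site, and promoters of 1 gene overlap where its starts lie close together.

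Values are the authors' linear MAS5 signals. Each array was scaled as a whole, and every array had a trimmed mean of 100.03 once the lowest and highest 2% were dropped. Changes are differences of log2(signal + 16), which understates the change of dim genes, and a gene was called at a Benjamini-Hochberg adjusted p under 0.05 in a limma fit of all 32768 probe sets that passed the filter. Median signals were 17.94 to 20.06 on arrays labelled ERBB2, 15.57 to 16.9 with EGF and 19.85 to 20.18 with vector. These medians were close to the 16 added before taking logs, so scaling arrays to equal medians sets dim probe sets level. All 5 measured basal mammary markers of 7 listed and all 5 general epithelial markers had mean signals over 100. The basal markers' summed signals were 8351 to 9378 on arrays labelled ERBB2, 12830 to 15350 with EGF and 16450 to 18970 with vector. KRT14, a basal keratin, averaged 148.9, 1758 and 2640 on arrays labelled ERBB2, EGF arrays and vector arrays. KRT5, the brightest basal marker, and ITGB4 were also lower in both comparisons with vector. LAMB3 went the other way, with log2 changes of 0.53 in cells labelled ERBB2 and 1.19 with EGF. CDH3 was lower with EGF (-0.32) and not called in cells labelled ERBB2 (-0.08). Of the epithelial markers, whose sums overlapped between groups, DSP was lower in cells labelled ERBB2 than in vector cells (log2 change -1.39) and EPCAM higher (1.13). The part of these marker shifts in the results was not tested. The defining markers of adipocytes, which also express these pathways, were low, the highest being CIDEC at a mean signal of 31.3. CIDEC averaged 43.16 on arrays labelled ERBB2, 9.669 with EGF and 41.07 with vector, and was called lower with EGF (-1.18). The highest blood or endothelial marker was PECAM1 at 52.98. It averaged 90.08 on arrays labelled ERBB2, 39.86 with EGF and 28.98 with vector, and was called higher in cells labelled ERBB2 than in vector cells (1.27). The part of these 2 shifts in the results was not tested. Among fibroblast markers DCN had a mean of 719. The summed signals of the 6 fibroblast markers were 394.7 to 576.2 on arrays labelled ERBB2, 501.6 to 557.6 with EGF and 1357 to 1509 with vector, and their part in the results was not tested.

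The label of the ERBB2 group was checked first. The brightest ERBB2 probe set read 114.1, 72.21 and 110.2 in the arrays labelled ERBB2, 128.4, 81.89 and 102 with EGF and 183.9, 216.2 and 121.9 in vector arrays, so it was not higher in the labelled arrays (log2 change -0.71 ± 0.20 SE, adjusted p = 0.006756). A dimmer one read 34.05, 34.23 and 38.48, against 5.677, 9.69 and 22.48 in vector arrays (log2 change 0.89, adjusted p = 0.008824) while a further dim probe set was not called (0.10, adjusted p = 0.8236). The position of the probes relative to the introduced sequence is not given in the sources used here, so the group is called "labelled ERBB2" and every direction drawn from it rests on that label. The ratio of 5′ to 3′ signal of the ACTB control, a measure of RNA and labelling quality, was 0.737 ± 0.051 (SD, n = 3) in the arrays labelled ERBB2, 0.444 ± 0.063 with EGF and 0.379 ± 0.055 in vector arrays. The 3′ control for 18S RNA read 11930 to 13510 in arrays labelled ERBB2, 2103 to 3369 with EGF and 1945 to 4570 in vector arrays. The 5′ to 3′ ratio of the GAPDH control overlapped between groups. It was 0.838 to 0.901 in arrays labelled ERBB2, 0.762 to 0.85 with EGF and 0.821 to 0.885 in vector arrays. The ACTB and 18S values moved with the label in every result on the cells labelled ERBB2, and their part in those results was not tested.

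**Figure D1:**
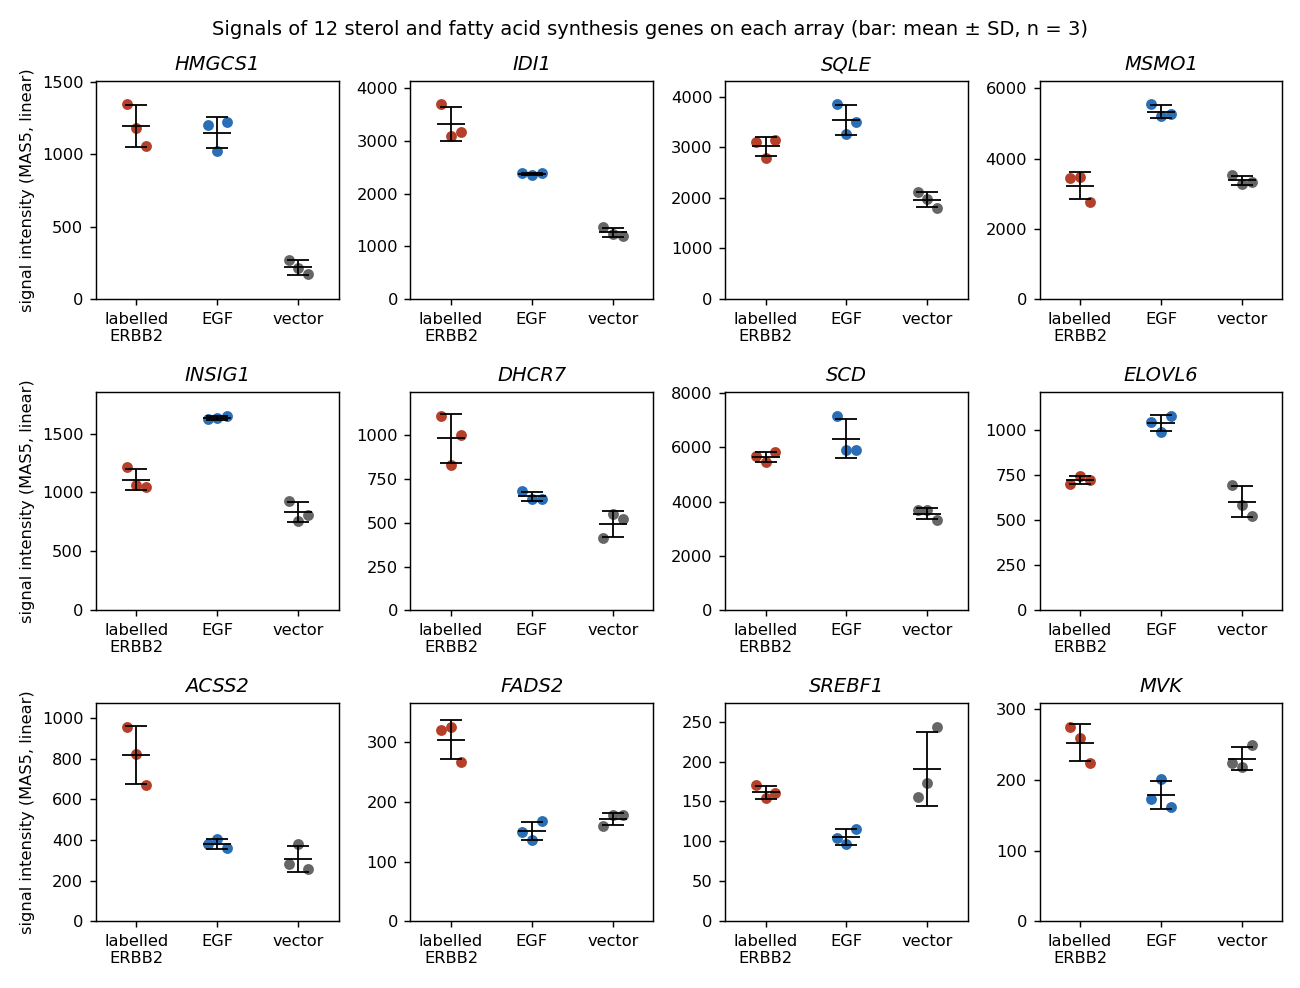
Linear MAS5 signal (vertical axis, from 0) of 12 members on each array, for arrays labelled ERBB2, EGF arrays and vector arrays; points are arrays, and the cross bar with whiskers is the mean ± SD of 3 arrays. HMGCS1 is high in arrays labelled ERBB2 and in EGF arrays, MSMO1 stands out with EGF and ACSS2 and FADS2 in the arrays labelled ERBB2.

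In cells labelled ERBB2 compared with vector cells, most sterol synthesis genes and most fatty acid synthesis genes were higher. Of 18 sterol genes 13 rose and 2 fell, and of 9 fatty acid genes 7 rose and 0 fell. Among all 13726 genes tested, 20.8% rose and 25% fell. Among the 7157 genes whose mean signal was at least that of the member with the lowest mean, 31.2% rose and 33.4% fell. The median log2 change was 0.62 for the sterol genes and 0.34 for the fatty acid genes, against -0.07 for all genes tested. The lists were chosen with results of these arrays known, so these counts are descriptions of the lists.

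At the entry of the pathway, HMGCS1, which makes HMG-CoA from acetyl-CoA and acetoacetyl-CoA, read 1343, 1183 and 1057 in cells labelled ERBB2, against 268.8, 214.2 and 171.7 in vector cells. Every array labelled ERBB2 lay above every vector array, and the fold on the log2(signal + 16) scale was 5.22 (log2 change 2.38 ± 0.13 SE, adjusted p = 1.16e-11). ACAT2, the cytosolic thiolase that supplies acetoacetyl-CoA, read 1449, 1263 and 1097 in cells labelled ERBB2 and 526.4, 547.9 and 677.5 in vector cells, again without overlap (1.10 ± 0.10, adjusted p = 5.111e-08). The mevalonate steps followed with different sizes. MVK, mevalonate kinase, read 275.2, 258.5 and 224.3 in cells labelled ERBB2 and 223.2, 218.3 and 249.1 in vector cells, overlapping groups that were not called (0.12, adjusted p = 0.4646). PMVK, the kinase of the next step, rose (0.76 ± 0.09), as did MVD, the decarboxylase that yields isopentenyl diphosphate (1.19 ± 0.17, from dim signals of 130.2 to 154.6 in cells labelled ERBB2 and 38.03 to 68.75 in vector cells). IDI1, which isomerizes isopentenyl diphosphate, read 3689, 3096 and 3174 in cells labelled ERBB2, against 1363, 1240 and 1203 in vector cells. The groups lay far apart (1.37 ± 0.08, adjusted p = 2.923e-11). FDPS, which makes farnesyl diphosphate, rose by 0.65 ± 0.07.

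After squalene, 6 of 8 measured enzymes rose in the same comparison. SQLE, squalene epoxidase, read 3110, 2792 and 3141 in cells labelled ERBB2 and 2108, 1969 and 1807 in vector cells (0.62 ± 0.08, adjusted p = 2.845e-06). LSS, which closes the ring to lanosterol, was lower by its brightest probe set, at 855.9, 950 and 906 in cells labelled ERBB2 and 1097, 1282 and 1039 in vector cells (-0.32 ± 0.09, adjusted p = 0.00632). MSMO1, which acts on the sterol's methyl groups, read 3442, 3481 and 2778 in cells labelled ERBB2 and 3531, 3267 and 3344 in vector cells. These groups overlapped (-0.07 ± 0.08, adjusted p = 0.5267). Its partner enzymes NSDHL (0.76) and HSD17B7 (0.49) rose, as did the isomerase EBP (0.62) and the desaturase SC5D (0.54). DHCR7, the reductase that makes cholesterol, read 1114, 833.3 and 1004 in cells labelled ERBB2, against 410.7, 551.3 and 523.9 in vector cells, and rose by 0.97 ± 0.11 (adjusted p = 8.31e-07). HSD17B7 and IDI1 were read by probe sets with the suffix that Affymetrix gives where probes can match other transcripts, so related sequences may contribute to their signals.

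Of the sterol regulators, INSIG1, which retains SREBPs and is itself an SREBP target, read 1213, 1063 and 1049 in cells labelled ERBB2 and 924, 758.9 and 808.7 in vector cells (0.41 ± 0.09, adjusted p = 0.0006626). SREBF2 was not called, with 273.3, 233.1 and 177.7 in cells labelled ERBB2 and 259.6, 193 and 248.7 in vector cells (-0.04 ± 0.15, adjusted p = 0.8541). STARD4, a cytosolic sterol carrier, was lower, with 255.7 to 262.1 in cells labelled ERBB2 and 309.8 to 352.3 in vector cells (-0.34 ± 0.10, adjusted p = 0.0109). With arrays scaled to equal medians the calls of both lower genes ended, at -0.24 for LSS (adjusted p = 0.08053) and -0.26 for STARD4 (adjusted p = 0.09713).

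In the fatty acid list the largest rise in cells labelled ERBB2 was in ACSS2, which turns acetate into acetyl-CoA. It read 957.4, 821.5 and 671.6 in cells labelled ERBB2, against 280.1, 379.1 and 258 in vector cells, a fold of 2.595 (log2 change 1.38 ± 0.13, adjusted p = 6.336e-08). FADS2, a desaturase of polyunsaturated fatty acids, read 320.4, 326 and 266.9, against 160.2, 177.7 and 177.7 in vector cells (0.77 ± 0.12, adjusted p = 4.194e-05). SCD, which makes monounsaturated fatty acids, read 5675, 5463 and 5814 in cells labelled ERBB2 and 3689, 3676 and 3313 in vector cells (0.67 ± 0.08). FASN, the fatty acid synthase, rose by 0.52 ± 0.10, ACLY, which makes cytosolic acetyl-CoA from citrate, by 0.34 ± 0.08, and ME1, an NADPH-producing malic enzyme, by 0.28 ± 0.08. ACACA, which makes malonyl-CoA, read 463.1, 449.5 and 482.8 in cells labelled ERBB2 and 507.3, 570.4 and 512.1 in vector cells and was not called (-0.18, adjusted p = 0.1504). SREBF1, at 170.1, 154.4 and 160.3 in cells labelled ERBB2 and 155.8, 173.6 and 243.6 in vector cells, was not called either (-0.20 ± 0.15, adjusted p = 0.3216). ELOVL6, an elongase of saturated chains, was called at 0.26 ± 0.10 (adjusted p = 0.0341). It missed the threshold when any of 4 arrays was left out, namely vector replicate 2 (0.25, adjusted p = 0.08092), vector replicate 3 (0.17, adjusted p = 0.2029), ERBB2 replicate 2 (0.24, adjusted p = 0.09556) or ERBB2 replicate 3 (0.26, adjusted p = 0.07271). It also missed it with no filter (adjusted p = 0.05469), after quantile normalization (0.22, adjusted p = 0.07286), without a variance trend (adjusted p = 0.1335) and in a fit of only the arrays compared (adjusted p = 0.05611). These values are of its brightest probe set. Both further probe sets of ELOVL6 were called higher in cells labelled ERBB2 (0.60, adjusted p = 5.132e-05, and 0.44, adjusted p = 0.01046).

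After 2 h of EGF compared with vector, sterol genes again were mostly higher, and the fatty acid list was divided. Of 18 sterol genes 12 rose and 3 fell, and of 9 fatty acid genes 4 rose and 2 fell. Among all genes tested 17.2% rose and 18.9% fell, and among the genes with at least the lowest member's mean signal 28% rose and 25.1% fell. The median log2 change was 0.49 for sterol genes and 0.32 for fatty acid genes, against -0.10 for all genes tested. The comparison shares its vector arrays with the one above, so the sets of values are not independent. EGF arrays also had the lowest medians, and equal medians moved the median change of all probe sets from -0.11 to 0.11. Of all calls 44.8% were rises with the deposited scaling and 78% with equal medians. Among the genes with at least the lowest member's mean signal, equal medians moved the median change from 0.001 to 0.287. With equal medians 14 sterol genes were called higher and 0 lower, and 6 fatty acid genes higher and 1 lower. After quantile normalization 12 sterol genes were higher and 3 lower, and 4 fatty acid genes higher and 2 lower, as with the deposited scaling.

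HMGCS1 read 1200, 1025 and 1220 with EGF, against 268.8, 214.2 and 171.7 in vector cells, a 5.03-fold difference on the log2(signal + 16) scale (2.33 ± 0.13, adjusted p = 4.93e-11). IDI1 read 2395, 2359 and 2385 with EGF, against 1363, 1240 and 1203 in vector cells (0.90 ± 0.08, adjusted p = 3.041e-08). SQLE reached 3845, 3270 and 3504 (0.85 ± 0.08) and FDPS 5598, 5836 and 5770 (0.72 ± 0.07, vector cells 3261, 3426 and 3792). Neither gene's EGF arrays overlapped the vector arrays. MSMO1, not called in the cells labelled ERBB2, read 5547, 5208 and 5275 with EGF, against 3531, 3267 and 3344 in vector cells (0.66 ± 0.08, adjusted p = 2.454e-06). INSIG1 was nearly identical on the 3 EGF arrays, at 1620, 1632 and 1653, against 924, 758.9 and 808.7 in vector cells (0.97 ± 0.09, adjusted p = 4.664e-08). MVD (1.003 ± 0.17), ACAT2 (0.62 ± 0.10), NSDHL (0.56 ± 0.11), PMVK (0.43 ± 0.09) and SC5D (0.38 ± 0.09) rose as well. DHCR7 was called at 0.40 ± 0.11 (adjusted p = 0.01187), with 683.3, 638.8 and 634.8 on EGF arrays, and lost the call without vector replicate 1 (0.27, adjusted p = 0.08086).

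EBP (0.19, adjusted p = 0.09653) and HSD17B7 (0.16, adjusted p = 0.261) were not called with EGF, and both were with equal medians (0.48 and 0.45). A further probe set of EBP, nearly as bright, was called higher with EGF (0.36, adjusted p = 0.001322). SREBF2 read 189.9, 180.6 and 167.2 with EGF and 259.6, 193 and 248.7 in vector cells (-0.35 ± 0.15, adjusted p = 0.08351). Its groups did not overlap, and it was called without vector replicate 2 (-0.47, adjusted p = 0.02959). With equal medians its change was -0.07 (adjusted p = 0.8154). Of its further probe sets, the brighter was not called (-0.41, adjusted p = 0.08094) and the dim one was called lower (-0.68, adjusted p = 0.04885). STARD4 fell to 245.9, 248.2 and 254.2 with EGF, against 352.3, 309.8 and 337.6 in vector cells (-0.39 ± 0.10, adjusted p = 0.005947, and -0.11 with equal medians, adjusted p = 0.5671). LSS read 938.3, 868.1 and 973.9 with EGF (-0.29 ± 0.09, adjusted p = 0.01871), but missed the threshold when vector replicate 2 (-0.20, adjusted p = 0.1147) or EGF replicate 2 (-0.24, adjusted p = 0.09017) was left out. With equal medians its change was 0.01 (adjusted p = 0.9708). MVK was called lower, at 172.4, 201.3 and 162.1 with EGF (-0.34 ± 0.12, adjusted p = 0.04066). This call did not hold without any of vector replicates 1, 2 and 3 and EGF replicates 1 and 3, where the adjusted p was 0.06207, 0.05214, 0.1503, 0.1037 and 0.1628 at changes of -0.36, -0.38, -0.29, -0.32 and -0.28.

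In the fatty acid list SCD, ELOVL6, ACLY and FASN rose with EGF. SCD read 7171, 5903 and 5902 with EGF, against 3689, 3676 and 3313 in vector cells (0.82 ± 0.08, adjusted p = 8.41e-08). ELOVL6 read 1043, 990.2 and 1079, against 693.1, 585.5 and 525 in vector cells, with no overlap (0.78 ± 0.10, adjusted p = 2.9e-06). The change was 0.57 ± 0.08 for ACLY and 0.50 ± 0.10 for FASN. SREBF1 fell to 104.5, 96.59 and 115.6 with EGF, against 155.8, 173.6 and 243.6 in vector cells, and every EGF array lay below every vector array (-0.75 ± 0.15, adjusted p = 0.0006865). FADS2 read 149.5, 137.1 and 168.1 with EGF and was not called (-0.17, adjusted p = 0.345), nor was ACACA (0.14, adjusted p = 0.3073), though with equal medians ACACA was called higher (0.43, adjusted p = 0.002586). ACSS2, at 378.7, 404.6 and 358.8, overlapped the vector arrays (0.32 ± 0.13, adjusted p = 0.0822). It was called without vector replicate 2 (0.48, adjusted p = 0.00917) and with equal medians (0.61, adjusted p = 0.002494). ME1 was called lower, at 764.9, 729.5 and 690.9 with EGF against 885, 847.2 and 856.5 in vector cells (-0.24 ± 0.08, adjusted p = 0.02861). It was lost on leaving out vector replicate 1 (-0.22, adjusted p = 0.07535), vector replicate 3 (-0.25, adjusted p = 0.06689), EGF replicate 2 (-0.24, adjusted p = 0.06802) or EGF replicate 3 (-0.20, adjusted p = 0.1243), and the change was 0.06 with equal medians (adjusted p = 0.7393).

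Averaged over the 18 sterol genes, each array's log2 level relative to the vector mean was 0.70, 0.62 and 0.55 in cells labelled ERBB2, 0.50, 0.48 and 0.49 with EGF and between -0.01 and 0.01 in vector cells. For the 9 fatty acid genes it was 0.48, 0.41 and 0.38 in cells labelled ERBB2, 0.29, 0.14 and 0.23 with EGF and -0.03, 0.07 and -0.04 in vector cells. Every array labelled ERBB2 and every EGF array lay above every vector array in both lists.

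The cells labelled ERBB2 were then compared directly with the EGF cells, which differ in the virus and in the 2 h of EGF. Of 18 sterol genes 7 were higher and 3 lower in cells labelled ERBB2, and of 9 fatty acid genes 4 were higher and 3 lower. Among all genes tested 12.8% were higher and 16% lower, and among the genes with at least the lowest member's mean signal 17.7% were higher and 25.7% lower. The median log2 change was 0.19 for sterol genes, 0.02 for fatty acid genes and 0.01 for all genes tested. Equal medians moved the median change of all probe sets from 0.03 to -0.13 and the share of rises among all calls from 48.8% to 23.7%. With equal medians 2 sterol genes were higher and 4 lower, and 3 fatty acid genes higher and 4 lower. After quantile normalization 7 sterol genes were higher and 2 lower, and 4 fatty acid genes higher and 3 lower. The count of sterol genes higher in cells labelled ERBB2 thus changed with equal medians and not after quantile normalization.

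ACSS2, FADS2, DHCR7, IDI1 and ME1 were higher in cells labelled ERBB2 both with the deposited scaling and with equal medians. ACSS2 read 957.4, 821.5 and 671.6 in cells labelled ERBB2, against 378.7, 404.6 and 358.8 with EGF (1.06 ± 0.13, adjusted p = 6.026e-06, and 0.85 with equal medians). FADS2 read 320.4, 326 and 266.9, against 149.5, 137.1 and 168.1 with EGF (0.94 ± 0.12, adjusted p = 1.026e-05, and 0.74 with equal medians). DHCR7 read 1114, 833.3 and 1004, against 683.3, 638.8 and 634.8 with EGF (0.57 ± 0.11, adjusted p = 0.0008094, and 0.36 with equal medians). IDI1 was higher by 0.47 ± 0.08 (adjusted p = 0.0001236, and 0.26 with equal medians) and ME1 by 0.52 ± 0.08 (adjusted p = 5.537e-05, and 0.32 with equal medians). The groups of these 5 genes did not overlap. The calls of 6 further genes ended with equal medians, namely MVK (0.47 and, with equal medians, 0.27), PMVK (0.33 and 0.13), HSD17B7 (0.33 and 0.13), EBP (0.43 and 0.22), ACAT2 (0.48 and 0.27) and SREBF1 (0.55 and 0.36). Among them the call of PMVK also ended without EGF replicate 2 (0.30, adjusted p = 0.05612) and that of HSD17B7 without ERBB2 replicate 2 (0.33, adjusted p = 0.05206) or EGF replicate 2 (0.28, adjusted p = 0.0948). SREBF2, not called at 0.30 (adjusted p = 0.1474), was called without ERBB2 replicate 3 (0.46, adjusted p = 0.03002). It was also called higher with the mean of its probe sets (0.44, adjusted p = 0.02804). Of its further probe sets, the brighter was called higher (0.75, adjusted p = 0.002356) and the dim one was not called (0.26).

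Genes lower in cells labelled ERBB2 than with EGF were led by MSMO1, at 3442, 3481 and 2778 in cells labelled ERBB2 against 5547, 5208 and 5275 with EGF (-0.73 ± 0.08, adjusted p = 9.424e-07, and -0.94 with equal medians). INSIG1 (-0.56 ± 0.09, adjusted p = 6.455e-05) and ELOVL6 (-0.52 ± 0.10, adjusted p = 0.0003989) had groups that did not overlap either. The smaller differences of SQLE (-0.23, adjusted p = 0.04112), ACLY (-0.23, adjusted p = 0.03466) and ACACA (-0.32, adjusted p = 0.01827) were called but depended on single arrays. SQLE lost its call without ERBB2 replicate 1 (-0.25), 2 (-0.18) or 3 (-0.26) or EGF replicate 1 (-0.17) or 3 (-0.23), with adjusted p between 0.05198 and 0.1958. ACLY lost it without ERBB2 replicate 1 (-0.24), 2 (-0.25) or 3 (-0.20) or EGF replicate 1 (-0.20) or 3 (-0.23), with adjusted p between 0.05201 and 0.1361. ACACA lost it without ERBB2 replicate 2 (-0.30, adjusted p = 0.06051) or EGF replicate 1 (-0.24, adjusted p = 0.1136). HMGCS1 (0.05 ± 0.13, adjusted p = 0.8195), FDPS (-0.06 ± 0.07, adjusted p = 0.5826) and FASN (0.02 ± 0.10, adjusted p = 0.9268) were not called, though FDPS was with equal medians (-0.27, adjusted p = 0.01071).

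**Figure D2:**
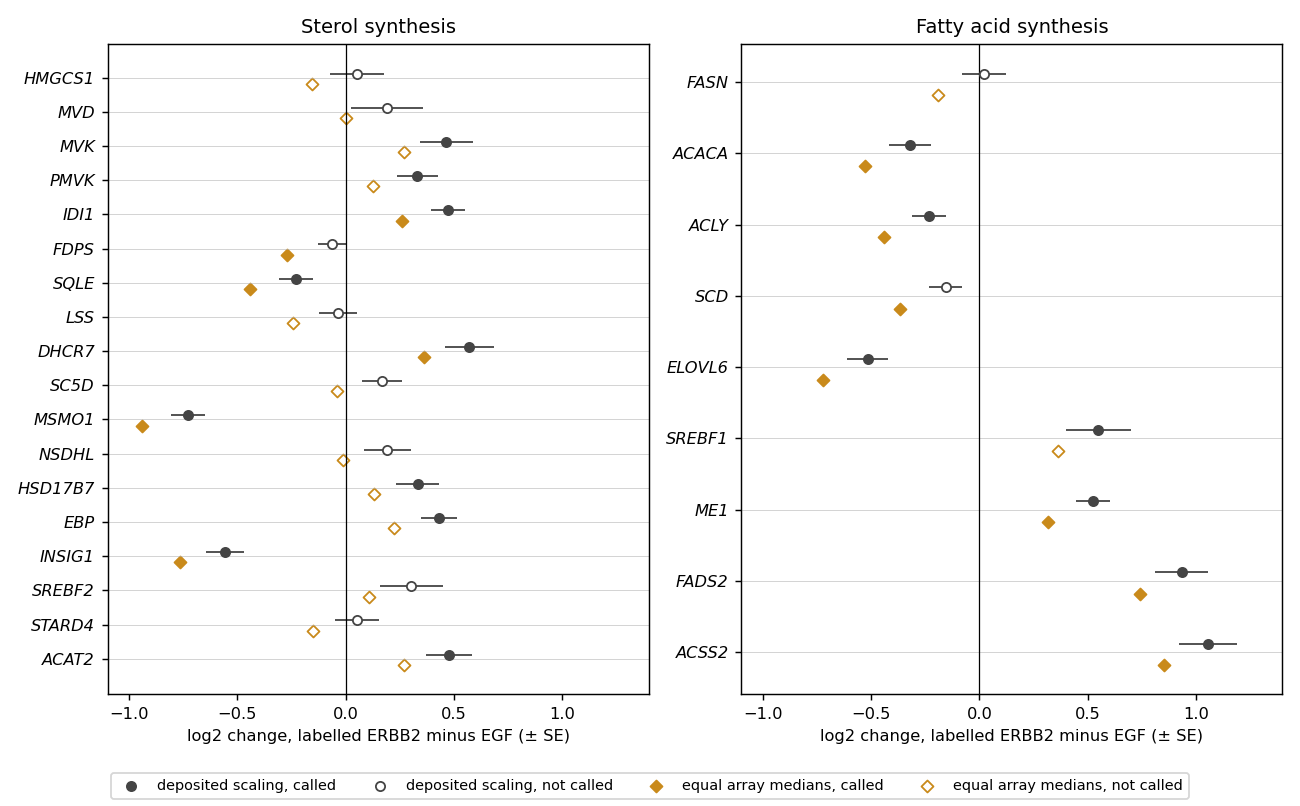
Log2 change between arrays labelled ERBB2 and EGF arrays (horizontal axis) for the 18 sterol and 9 fatty acid genes, with the deposited scaling (circles, ± SE) and with equal array medians (diamonds); filled marks are called at an adjusted p under 0.05. Equal medians move every gene to the left, while MSMO1, INSIG1 and ELOVL6 stay below 0 and ACSS2, FADS2, ME1, DHCR7 and IDI1 stay above 0 and called.

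The further probe sets of the members were read for agreement in sign. Of 28 further probe sets of genes called in cells labelled ERBB2 against vector, 22 had the sign of the brightest, and 2, of IDI1 and LSS, were called with the other sign. With EGF against vector 23 of 28 had the same sign, and 2 of IDI1 were called with the other sign. The other IDI1 probe set with a high signal matched the brightest (1.34 in cells labelled ERBB2 and 0.86 with EGF). Its dim ones, with mean signals of 13.64 to 56.96 in the 3 groups, ran the other way (-1.01 and -0.34 in cells labelled ERBB2, -0.97 and -0.70 with EGF). HMGCS1 rose in its further probe set by 2.52 and 2.10. MVK, not called by its brightest probe set in cells labelled ERBB2, was called higher there by 2 others (0.73 and 0.52). For LSS the further probe sets had changes of 0.53 (adjusted p = 0.007811) and -1.08 (adjusted p = 0.0003248) in cells labelled ERBB2, so its direction there differed between probe sets. For SREBF1 the further probe set, with single signals between 3.934 and 45.18, was not called in either comparison. FASN's further probe set was as dim, with signals of 6.296 to 22.34, and was not called. With the mean of a gene's probe sets in place of the brightest, the calls of FASN ended in cells labelled ERBB2 (0.20, adjusted p = 0.2326) and with EGF (0.19, adjusted p = 0.2875). In the same setting the call of ME1 ended in cells labelled ERBB2 (0.19), and those of IDI1 (0.02), SC5D (0.11) and SREBF1 (-0.62, adjusted p = 0.05225) ended with EGF. The EGF calls of MVK (-0.25), LSS (-0.25, adjusted p = 0.05561) and ME1 (-0.06) ended too, and SREBF2 was called lower with EGF (-0.48, adjusted p = 0.01366). The brighter of ME1's further probe sets had the other sign with EGF and was not called (0.23, adjusted p = 0.123).

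Between cells labelled ERBB2 and EGF cells, 16 of 24 further probe sets of called genes shared the sign of the brightest, and 1 was called with the other sign. SCD's brightest probe set was not called (-0.16 ± 0.08, adjusted p = 0.1571), while its 3 further ones were called higher in cells labelled ERBB2. They changed by 0.36 (adjusted p = 0.006619), 1.11 (adjusted p = 0.002338) and 1.22 (adjusted p = 0.0001802). SCD was called in opposite directions by setting. Its brightest probe set was lower with equal medians (-0.37, adjusted p = 0.001034), and the mean of its probe sets was higher (0.64, adjusted p = 0.003287). One of ACLY was called higher (0.28, adjusted p = 0.01787), opposite to the brightest. A second of NSDHL was called lower (-0.52, adjusted p = 0.003833) where the brightest was not called (0.19). The further probe sets of INSIG1 (-0.31 and 0.13) and ELOVL6 (-0.09 and 0.02) were not called, and with the mean of probe sets the calls of INSIG1 (-0.25), ELOVL6 (-0.20), IDI1 (0.32), EBP (0.31), ME1 (0.25) and SREBF1 (0.42) ended. The calls of SQLE (-0.08) and ACLY (0.02) ended in that setting as well. Further probe sets of LSS were called in both directions (0.79 and -0.87). Those of MVK (1.124 and 0.58) and DHCR7 (0.84) were called with the sign of the brightest, and so was 1 of EBP (0.77). Another of EBP, nearly as bright as its brightest, was not called (0.055, adjusted p = 0.674). The ACTB 5′ to 3′ ratio of 0.737 in arrays labelled ERBB2 and 0.444 with EGF moved with this comparison. Probe positions were not used here, and the part of the ratio in these disagreements was not tested.

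**Figure D3:**
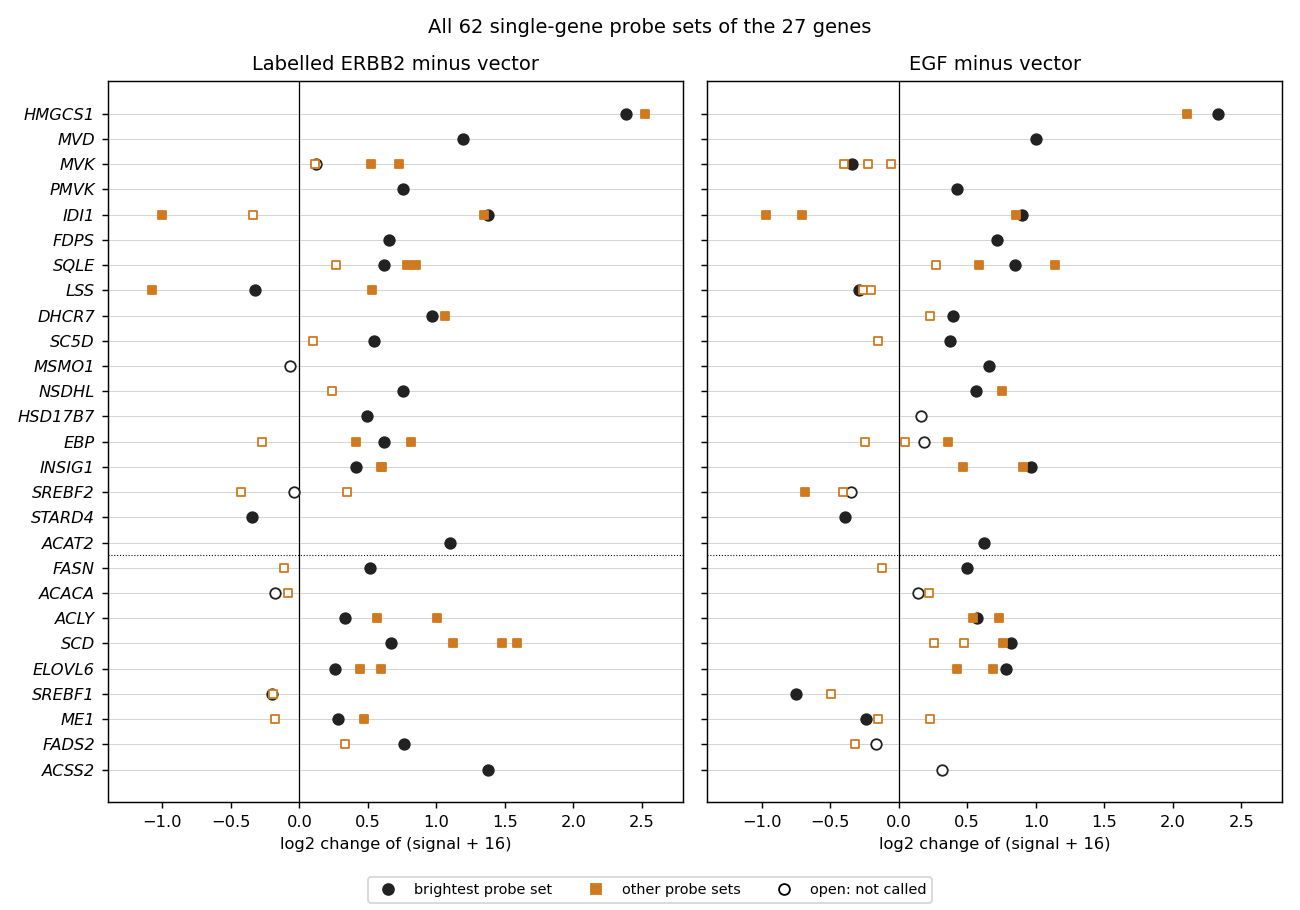
Log2 change of (signal + 16) for all 62 single-gene probe sets of the 27 members, in arrays labelled ERBB2 and in EGF arrays against vector (horizontal axes); circles are the brightest probe set of a gene, squares its others, and open marks are not called. The other marks of IDI1 and LSS lie on both sides of 0 in arrays labelled ERBB2, while those of SCD, ACLY and INSIG1 lie to the right.

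Neighbouring lipid pathways were described from lists that do not share members with the synthesis lists. Their counts stand beside the shares among genes at least as bright as the dimmest member, of which 31.2% rose and 33.4% fell in cells labelled ERBB2, and 28% rose and 25.1% fell with EGF. Counts near these shares say nothing particular about a list, and none was tested as a set. Fatty acid oxidation genes fell more often than they rose with the deposited scaling, and with EGF this was not seen with equal medians. In cells labelled ERBB2 5 of 9 fell and 0 rose (median log2 change -0.57), against 33.4% and 31.2% of genes as bright, among them ACADM (-1.46) and ACADVL (-1.11), acyl-CoA dehydrogenases of the mitochondrion, and HADHA (-0.99) and HADHB (-1.30), the subunits of the trifunctional protein. With EGF 6 of 9 fell and 0 rose (median -0.30), with ACADM at -0.54, HADHB at -0.44, HADHA at -0.41, ACAA2, a thiolase, at -0.32 and ACADVL at -0.305. With equal medians 5 of 9 fell in cells labelled ERBB2 (median -0.48), while 0 fell with EGF (median -0.01). After quantile normalization 5 fell in cells labelled ERBB2 (median -0.57) and 6 with EGF (median -0.36). HADHB averaged 1763 ± 70.01 in cells labelled ERBB2, 3226 ± 172 with EGF and 4376 ± 250.5 in vector cells (SD, n = 3 each).

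Genes of cholesterol transport, storage and the LXR receptors, which respond to oxidized sterols, fell in 4 of 12 and rose in 1 of 12 in cells labelled ERBB2, a lower share near the 33.4% of genes as bright. With EGF 5 of 12 fell and 0 rose, against 25.1% and 28%. SMPDL3A, an LXR target, was at -1.48 in cells labelled ERBB2 and -0.98 with EGF, NR1H3, an LXR receptor, at -1.15 and -0.59, and SOAT1, which esterifies cholesterol, at -0.95 and -0.66. NPC2, a lysosomal cholesterol carrier, fell in both (-0.70 in cells labelled ERBB2 and -0.53 with EGF). NPC1, its membrane partner, fell with EGF (-0.59) and was not called in cells labelled ERBB2 (-0.18). With equal medians 1 rose and 2 fell with EGF, and the EGF calls of NR1H3 (-0.33) and NPC1 (-0.30) ended. After quantile normalization 0 rose and 5 fell with EGF. ABCA1, a cholesterol exporter and LXR target, had signals too low to pass the filter, with group means of 10.02 in cells labelled ERBB2, 10.8 with EGF and 11.2 in vector cells. The dim LXR targets ABCG1, MYLIP and LPCAT3 were not called in either comparison with vector. Their changes were -0.22, 0.22 and -0.02 in cells labelled ERBB2 and 0.16, -0.10 and -0.19 with EGF.

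Of the machinery that moves and cuts SREBPs, 3 of 9 genes were higher and 2 lower in cells labelled ERBB2, against 31.2% and 33.4% of genes as bright. With EGF 2 were higher and 3 lower, against 28% and 25.1%. SCAP, the SREBP escort, averaged 232.6 ± 25.15 in cells labelled ERBB2, 226.7 ± 27.5 with EGF and 404.2 ± 27.8 in vector cells (-0.76, adjusted p = 2.613e-05, and -0.80, adjusted p = 2.821e-05). The ubiquitin ligase RNF145 fell by 0.75 in cells labelled ERBB2 and by 0.32 with EGF. The ubiquitin-conjugating enzyme UBE2G2 rose by 0.50 and 0.90, and ERLIN1, an endoplasmic reticulum membrane protein, by 0.36 and 0.31. The EGF change of RNF145 was -0.02 with equal medians (adjusted p = 0.8899), where 2 genes of this list were higher and 1 lower with EGF. After quantile normalization 1 was higher and 3 lower with EGF. Further sterol enzymes and SREBP targets were higher in 4 of 8 and lower in 2 in cells labelled ERBB2 and higher in 3 and lower in 3 with EGF. TMEM97, a membrane protein, rose by 1.38 in cells labelled ERBB2 and 0.34 with EGF, and LBR, a sterol reductase of the nuclear envelope, by 1.07 and with EGF by 0.83. LPIN1, a phosphatidate phosphatase, was at -1.18 in cells labelled ERBB2 and -1.505 with EGF, ERG28 at -0.58 and -0.44, and the reductase TM7SF2 at -0.77 with EGF and, not called, -0.39 in cells labelled ERBB2. With equal medians the EGF calls of ERG28 (-0.14) and TM7SF2 (-0.53) ended, and 4 genes of this list rose and 1 fell. After quantile normalization 3 rose and 2 fell with EGF.

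The isoprenoid branch rose in 5 of 12 genes and fell in 2 in cells labelled ERBB2, against 31.2% and 33.4% of genes as bright. With EGF 5 rose and 1 fell, against 28% and 25.1%, and with equal medians 6 rose and 1 fell with EGF. After quantile normalization 5 rose and 1 fell with EGF. PDSS1, which makes the ubiquinone side chain, rose by 1.28 in cells labelled ERBB2 and 1.504 with EGF. ICMT, which methylates prenylated proteins, rose by 1.35 in cells labelled ERBB2 and 0.59 with EGF, and NUS1, of dolichol synthesis, by 0.64 and 0.89. COQ2, of ubiquinone synthesis, rose in cells labelled ERBB2 (1.11) and was not called with EGF (-0.09). PGGT1B, a geranylgeranyl transferase subunit, rose with EGF (0.67) and was not called in cells labelled ERBB2 (0.155). FNTB, the farnesyl transferase beta subunit, fell in both (-1.11 in cells labelled ERBB2 and -0.88 with EGF).

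Elongation, activation and lipid assembly genes rose in 5 of 14 and fell in 5 in cells labelled ERBB2, shares near the 31.2% and 33.4% of genes as bright. With EGF 1 rose and 7 fell, against 28% and 25.1%, but with equal medians 4 rose and 5 fell with EGF (median -0.06). After quantile normalization 1 rose and 6 fell with EGF (median -0.32). ACSL1, an acyl-CoA synthetase, averaged 1608 ± 106 in cells labelled ERBB2, 2298 ± 30.25 with EGF and 5109 ± 213 in vector cells (-1.66, adjusted p = 3.674e-13, and -1.15, adjusted p = 2.538e-10). Its relative ACSL4 rose by 0.29 in cells labelled ERBB2 and 1.14 with EGF. ACSL5 (-0.88) and the carboxylase ACACB (-0.71) fell with EGF and were not called in cells labelled ERBB2 (-0.33 and -0.02). Of the elongation enzymes, ELOVL7 (1.03) and HACD3 (0.80) rose in cells labelled ERBB2 and were not called with EGF, and TECR fell in both (-0.91 in cells labelled ERBB2 and -0.59 with EGF). Citrate and NADPH supply genes rose in 2 of 7 and fell in 3 in cells labelled ERBB2, and rose in 1 and fell in 4 with EGF. TKT, a transketolase, was at -0.98 in cells labelled ERBB2 and -0.63 with EGF, IDH1, the cytosolic isocitrate dehydrogenase, at -0.67 and -0.60, and MTHFD1, of folate metabolism, at 0.63 and 0.49. SLC25A1, the citrate carrier, fell in cells labelled ERBB2 (-0.42) and was not called with EGF (-0.28, adjusted p = 0.05883). Citrate synthase CS fell with EGF (-0.38) and was not called in cells labelled ERBB2 (-0.02). With equal medians the EGF calls of ACACB (-0.47), IDH1 (-0.30) and CS (-0.08) ended, and 1 citrate and NADPH supply gene rose and 1 fell with EGF. After quantile normalization 1 citrate and NADPH supply gene rose and 5 fell with EGF.

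**Figure D4:**
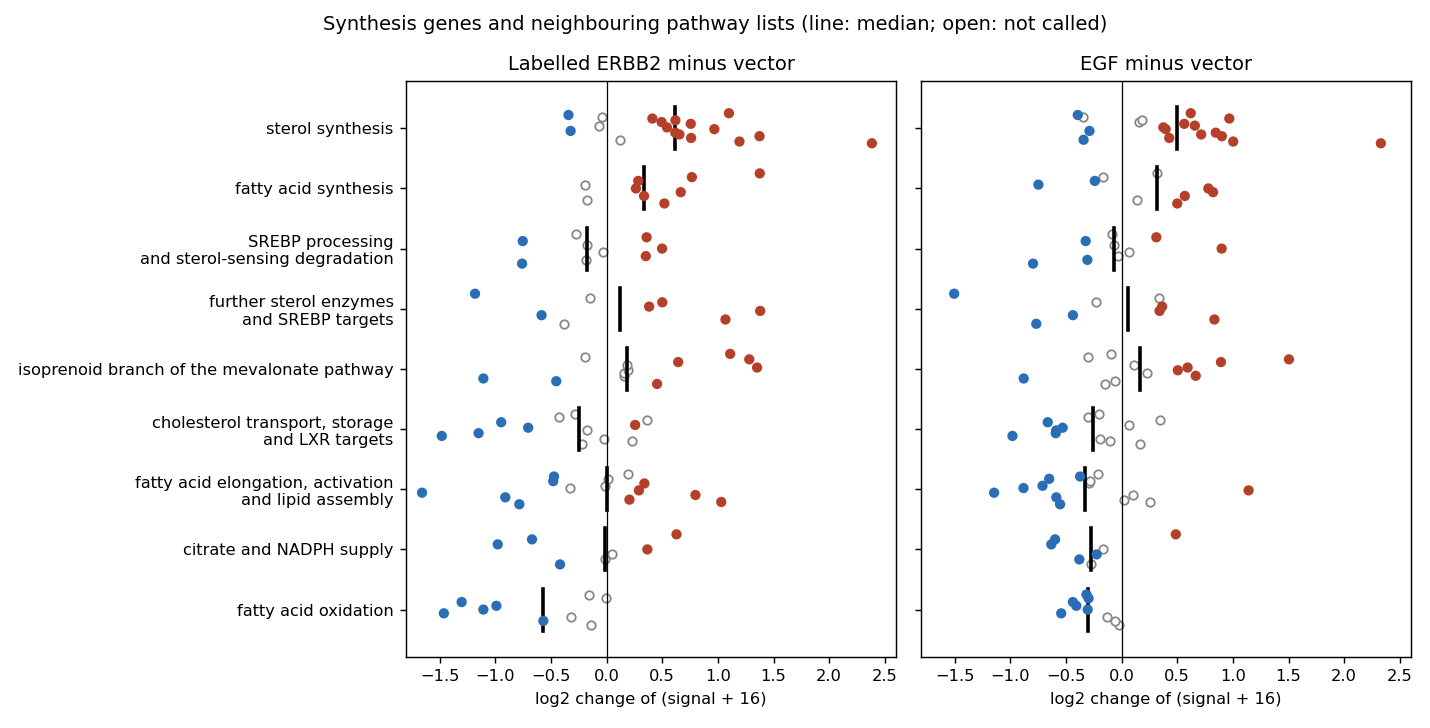
Log2 change of (signal + 16) against vector (horizontal axes) of each tested gene in the synthesis lists and in 7 neighbouring lipid lists, in arrays labelled ERBB2 and in EGF arrays; red points are called higher, blue points called lower, open points not called, and the black line is the list's median. The sterol medians are 0.62 and 0.49, and those of fatty acid oxidation -0.57 and -0.30. The last is -0.01 with equal medians and -0.36 after quantile normalization.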

How the data were processed

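The deposited values are linear signal intensities of 54675 probe sets on 9 arrays. The authors computed them with MAS5, according to the submitters' processing notes, and the version and settings are not stated there. No detection calls were used, so dim signals cannot be told from background. The equal trimmed means show that whole arrays were scaled, which can absorb a shift of many genes. By the array annotation 41097 probe sets had 1 gene, 1801 had several and 11777 had none, and the 62 control probe sets were left out.

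From the deposited intensities log2(signal + 16) was computed. Probe sets whose mean exceeded the 40th percentile entered 1 limma 3.58.1 model of group means over the 9 arrays in R 4.3.3 (lmFit, eBayes with trend, 6 residual degrees of freedom), which was tested on simulated data. P-values were adjusted over all 32768 probe sets. A single gene with 3 against 3 arrays cannot reach an exact permutation p under 0.1, and having 3 arrays in each group limits precision. The alternatives were pseudocounts of 1 and 64, equal array medians, quantile normalization, other filters (none, or the 60th percentile), no variance trend, array weights, a fit of only both groups of a comparison, replicate number as a blocking factor, omission of single arrays, and averaging a gene's probe sets.

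Members and gene lists were chosen with earlier results of these data known. Every member is named. From each neighbouring list, up to 4 called genes with the largest change per comparison with vector were named. ABCA1, ABCG1, MYLIP and LPCAT3 were added after their values were seen. Promoters were to be printed for called members with TCACNCCAC, and none of those with a promoter sequence had it, so 4 others are shown. The scaling check of the neighbouring lists was also added after the data were seen.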

Additional observations from a re-analysis of the deposited data

How the results depend on the processing

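Over the alternatives listed above, 519 of 540 single-gene values in cells labelled ERBB2 against vector kept their sign and side of the threshold, as did 499 of 540 with EGF and 485 of 540 between cells labelled ERBB2 and EGF cells. Of the others 14, 28 and 36 lost a call in those comparisons, 10 with EGF and 4 between the groups gained one, and 7, 3 and 15 changed sign. The sign changes in which a call was involved were LSS (0.008) and ME1 (0.055) with EGF at equal medians, and ACLY (0.022) and SCD (0.636) between cells labelled ERBB2 and EGF cells with the mean of probe sets. The others were of values not called in either setting. In cells labelled ERBB2 these were MSMO1 (0.026 after quantile normalization, 0.019 at equal medians, -0.127 to 0.035 on leaving out single arrays) and SREBF2 (0.042 at equal medians, -0.175 to 0.115 on leaving out single arrays), and with EGF FADS2 (0.107 at equal medians). Between cells labelled ERBB2 and EGF cells, equal medians turned HMGCS1 (-0.156), SC5D (-0.041), NSDHL (-0.011), STARD4 (-0.149) and FASN (-0.19), and the mean of probe sets NSDHL (-0.161). On leaving out single arrays there, HMGCS1 lay between -0.034 and 0.137, LSS between -0.081 and 0.003 and FASN between -0.078 and 0.12. Without a variance trend, calls ended for ELOVL6, LSS and ME1 in cells labelled ERBB2, for DHCR7, LSS, ME1, MVK and SC5D with EGF and for ACACA, ACLY, HSD17B7, PMVK and SQLE between the groups, and with no filter for ELOVL6, MVK, ACLY and SQLE in those comparisons. The causes were not tested.

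In cells labelled ERBB2 against vector, equal medians gave 0 lower sterol genes and medians of 0.71 (sterol) and 0.42 (fatty acid), the mean of probe sets gave 0.50 and 0.43, and no variance trend gave 1 lower sterol gene. With EGF against vector, equal medians gave 0 lower sterol and 1 lower fatty acid gene, medians of 0.78 and 0.61, and 7330 probe sets higher and 2064 lower. There the sterol median was 0.44 with a pseudocount of 64 and 0.45 after quantile normalization, no trend gave 1 lower gene in each list, and the mean of probe sets gave medians of 0.37 and 0.19 and 0 lower fatty acid genes. Between cells labelled ERBB2 and EGF cells, equal medians gave 2 higher sterol genes, medians of -0.004 and -0.19, and 2084 probe sets higher and 6706 lower. There no trend gave 1 lower fatty acid gene, and the mean of probe sets gave 1 lower gene in each list and a fatty acid median of 0.25.

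Leaving out each array in turn, the fatty acid median lay between 0.28 and 0.42 in cells labelled ERBB2, between 0.21 and 0.48 with EGF, and between -0.078 and 0.12 between those groups. In that last comparison it was -0.047 without ERBB2 replicate 1, -0.016 without ERBB2 replicate 3 and -0.078 without EGF replicate 2. The lower fatty acid genes numbered 1 to 2 with EGF and 1 to 3 between the groups, where the sterol median lay between 0.17 and 0.26.

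Same-numbered arrays did not deviate together (correlations of -0.03 to 0.02, with 0 of 9 pairs over 0.1). The labels do not say whether same-numbered samples were prepared together, and these correlations cannot tell. With the replicate number as a block, 13 sterol genes were higher in cells labelled ERBB2 and 12 with EGF, where ACSS2 gained a call (adjusted p = 0.04634) and MVK lost one (adjusted p = 0.05099). Without detection calls, which dim signals exceed background is unknown.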
